A study of Mus musculus with 148 samples.

Results

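The imprinted Zdbf2 region on mouse chromosome 1 was captured alongside the lactase locus, and its DNA modification was followed here at single cytosines of CpG sites, each strand counted on its own. A cytosine was kept when more than 30 reads covered it in at least 50% of the samples. Of 560 CpG cytosines listed in the region, 199 met this limit, and they lie at 181 CpG positions between chr1:63249819-63280484 (GRCm38). The same limit kept 1549 of 3762 CpG cytosines in the whole series. Of those left out, 343 passed 30 reads in no sample and 18 in some samples but too few. The cytosine just inside the limit passed 30 reads in 115 samples, and the one just outside in 69.

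DNA came from enterocytes, the absorptive cells of the gut epithelium, of C57BL/6 mice whose small intestine was cut into 9 segments from the proximal duodenum (segment 1) to the distal ileum (segment 9). Adults at postnatal day 60 (P60) gave 71 samples, with 8 in each segment and 7 in segment 6. Infants at postnatal day 6 (P6) gave 10 samples, with 3 in segment 1, 3 in segment 3 and 4 in segment 7. Older adults at postnatal day 90 (P90) had received milk in place of water for 60 days, either with lactose and added sucrose (LAC+, 35 samples) or lactose-free (lac-, 32 samples), and were sampled in segments 1, 3, 4, 7 and 8. The labels name no transgene or mutant allele in any group, and the P60 mice had standard food and water. Each sample is a chelation isolate from villi that still held some other cells, the files hold no RNA with which to check the cell type, and the spelling of the substrain differs between labels (C57BL/6NCrl and C57BL/6MCrl).

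Zdbf2 encodes a zinc finger protein and is a classical imprinted gene, expressed from the paternal chromosome. Genomic imprinting marks the parental copies of a gene with DNA methylation set in the germ line, and the Gpr1-Zdbf2 domain is known for a switch in which a germline mark on the maternal copy is followed in somatic tissue by methylation of the paternal copy upstream of Zdbf2. Where only one parental copy is methylated, a bisulfite measurement that pools both copies reads an intermediate level. The mice here were inbred, so the reads could not be assigned to a parental copy, and bisulfite does not tell methylation from hydroxymethylation, for which reason the neutral term modification is used.

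Positions are given in base pairs from the GENCODE start of Zdbf2, chr1:63273265 on the + strand, with upstream positions negative. The sequences that carry the findings are shown on the + strand of GRCm38, 5′ to 3′, with the CpGs that were measured in capitals. The first 3 hold CpGs whose modification rose along the adult gut, the fourth a CpG whose modification fell, the fifth the stretch of low modification before the gene, the sixth 4 CpGs read on both strands, and the seventh a stretch deep in the gene that rose in the distal gut.
Gradient pair, chr1:63255123-63255195: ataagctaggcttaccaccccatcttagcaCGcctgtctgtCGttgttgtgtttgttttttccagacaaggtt
Stretch before the promoter, chr1:63272132-63272213: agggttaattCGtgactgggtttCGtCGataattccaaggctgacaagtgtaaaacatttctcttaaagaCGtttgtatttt
Intron pair, chr1:63274984-63275082: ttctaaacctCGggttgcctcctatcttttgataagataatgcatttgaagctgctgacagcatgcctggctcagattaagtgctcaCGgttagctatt
Falling site, chr1:63250538-63250589: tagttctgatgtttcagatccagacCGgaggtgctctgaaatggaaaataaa
Low stretch, chr1:63272726-63272976: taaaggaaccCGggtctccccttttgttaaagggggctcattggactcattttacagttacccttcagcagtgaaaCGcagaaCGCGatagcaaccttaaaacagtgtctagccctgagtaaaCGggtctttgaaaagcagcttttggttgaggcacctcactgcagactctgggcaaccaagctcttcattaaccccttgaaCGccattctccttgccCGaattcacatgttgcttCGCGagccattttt
Two-strand stretch, chr1:63263801-63263870: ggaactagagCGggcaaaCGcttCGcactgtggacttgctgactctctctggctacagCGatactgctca
Gene body stretch, chr1:63279768-63279889: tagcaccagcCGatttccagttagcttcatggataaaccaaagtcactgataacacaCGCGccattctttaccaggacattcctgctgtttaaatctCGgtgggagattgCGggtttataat

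Read depth was high. The 199 cytosines had a median of 1690.5 reads over the samples, from 59 to 11998, and single samples held between 163 and 199 of them above 30 reads. All P6 libraries ran on sequencing lane 8, the P60 libraries on lanes 4 to 7 and the P90 libraries on lanes 1, 2, 3, 5, 6 and 7, so the P6 to P60 comparison and lane 8 cannot be told apart. The lane is the number in the deposited file name, and the sequencing run is not given. Libraries with the same lane number may therefore come from different runs. Of the deposited files, 29 of 35 LAC+ and 12 of 32 lac- files are marked as merged, with 7 of 7 and 5 of 7 in segment 4 and 6 of 7 and 1 of 7 in segment 8, and 0 of the 81 P60 and P6 files are. What was merged is not given in the sources used here, and at several cytosines described below the merged and unmerged P90 libraries stood apart. Within a P60 segment, the SD between samples had a median over the cytosines of 2.37 percentage points, 1.90 times what counting reads alone would give.

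Along the region, adult modification was mostly intermediate, and low in the measured stretches nearest to the gene start on either side of it. No cytosine was measured between −299 and the first of the 6 low cytosines that end at +958. The median of the 199 P60 means was 44.2%, and 133 cytosines (66.8%) lay between 35% and 65%. Of the others, 30 were below 20%, 20 were between 20% and 35%, 15 between 65% and 80%, and 1 above 80%. The 144 cytosines more than 1000 bp upstream had a median of 45.05%, with 108 of them (75%) between 35% and 65%. The 19 within 1000 bp of the start had a median of 5.69%, with 17 below 20%, and the 36 further inside the gene, all in introns, had a median of 49.3%. The low window was also the CpG-rich one: the genome holds 79.5 CpGs per kb there, against 15.1 upstream and 9.49 in the gene body, and its observed over expected CpG ratio was 0.958, against 0.314 and 0.288. In the GENCODE annotation 104 of the cytosines are intergenic and 53 lie in Gm11608, a noncoding gene on the opposite strand (35 in its introns, 18 in its exons). RefSeq also lists long Zdbf2 transcripts that begin at −72907 and run across the whole measured region.

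**Figure D1:**
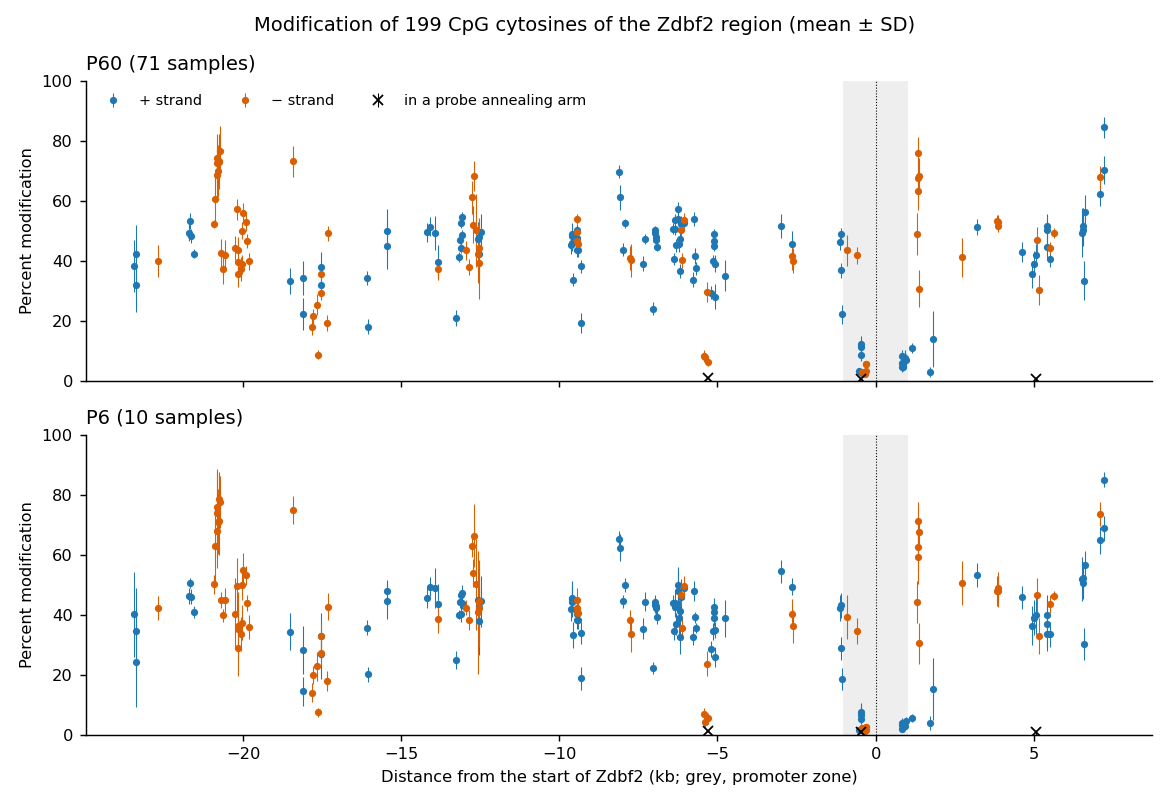
Percent modification (y axis) of each of the 199 CpG cytosines against distance from the Zdbf2 start in kb (x axis), as the mean ± SD over 71 P60 samples (top) and 10 P6 samples (bottom). Most points lie between 35% and 65%, those near the start lie mostly below 20% at both ages, and crosses mark 3 cytosines read in a probe annealing arm.

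The drop towards the start occurred over a short distance. In the stretch before the promoter shown above, the P60 mean at −1123 was 46.2%, at −1107 it was 36.8% and at −1063 it was 22.2%, while −896 and −585, inside the promoter window, were still at 43.5% and 41.8%. In the low stretch, by contrast, the 10 cytosines read in probe targets ranged from 2.31% at −335 to 12.3% at −463. Downstream of the start, the 6 cytosines that end at +958 ranged from 4.47% to 8.33%. Modification rose again inside the first intron, from 11.05% at +1141 to 48.97% at +1323 and 76.1% at +1353. It then fell to 2.90% at +1729 and 13.8% at +1806, which are the intron pair shown above.

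Joining cytosines at most 500 bp apart gave 15 blocks of 3 or more, which together held all but 7 cytosines. The most deeply read cytosine of each block gives a view of the profile from far upstream to the gene. In the far upstream blocks, the P60 mean was 31.9% at −23387 (132.5 reads), 53.3% at −21661 (3165 reads), 52.2% at −20920 (4543.5 reads) and 34.2% at −18112 (4017 reads). From there to the gene it was 51.4% at −14101, 48.8% at −13089, 46.6% at −9445, 47.2% at −7286, 45.05% at −5099 and 51.6% at −2982. These upstream values all lie near the middle of the scale except at −23387 and −18112, which are lower. In the 2 blocks around the start, the most read cytosines were −585 at 41.8% (10671 reads) and +1729 at 2.90% (4208.5 reads). In the 3 blocks further inside the gene, the values were 53.1% at +3877, 49.3% at +5631 (11998 reads, the deepest of all) and 70.3% at +7219.

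The extremes were few and had clear positions. The highest cytosine of all was +7215 with 84.5% ± 3.56 (SD, n = 71), a neighbour of +7219, and the one closest to 50% was −20045 with 50.0% ± 2.82. The lowest was the − strand cytosine at +5057 with 0.652% ± 0.589, but this one, like −453 (0.721%) and −5285 (1.07%), lies in the annealing arm of the probe that captured it, where the read carries the letters of the probe and not of the sample. The other 196 comprise 195 in a probe target and the cytosine at −585, which lies in no listed probe.

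Low modification was not confined to the stretches near the gene start. Outside the promoter window, 11 cytosines in probe targets were below 20% in P60. A run of 3 neighbours on the − strand inside Gm11608, at −5418, −5405 and −5299, had 8.23%, 7.82% and 6.39%, whereas −5335 between them had 29.6%. A cytosine at −17623 had 8.70%, between −17664 with 25.4% and −17541 with 29.3%. Neighbours on one captured fragment could thus differ widely: over 49 probes with at least 2 measured cytosines, the range of P60 means within a probe had a median of 12.0 points and reached 45.4 points in the probe at +1323 to +1365.

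Where both strands of a CpG were measured in a probe target, they carried similar levels. This was the case at 16 CpGs, each read by separate probes on the + and the − strand. The mean difference between strands had a median size of 2.85 points, was at most 5.49 points, and was within 5 points at 14 of the 16. In the two-strand stretch, the + and − strand means were 47.5% and 49.7% at −9454, 43.5% and 46.6% at −9446, 50.3% and 53.9% at −9441, and 43.5% and 45.5% at −9406. The − strand was higher at each of these 4 CpGs, in most samples, by 2.09 to 3.59 points. The largest gap, at +7082, was 62.3% against 67.8%, with the + strand higher in 2 of 71 samples. The 2 CpGs with a − strand cytosine in an annealing arm differed by 10.6 and 41.4 points.

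**Figure D2:**
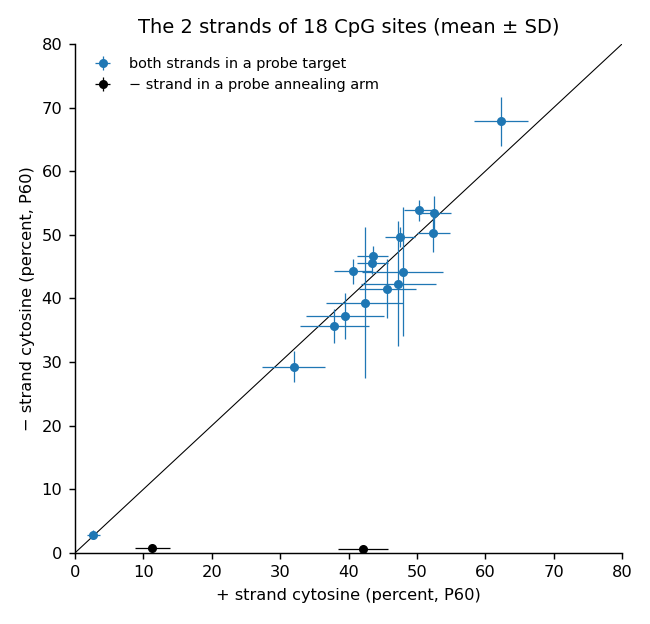
P60 mean ± SD of the − strand cytosine (y axis, percent) against the + strand cytosine (x axis, percent) at 18 CpGs read on both strands, with the line of equality. The 16 pairs read in probe targets stay within 5.49 points of the line, and the 2 pairs with one strand in a probe annealing arm lie near 0 on the y axis.

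The zinc finger protein ZFP57 maintains methylation at imprinted germline marks and binds TGCCGC when it is methylated. These letters were searched on both strands from the first to the last measured cytosine, and occurred 4 times. Of windows of 300 bases along the region, 4 of 102 (3.92%) held them, against 11.6% of the 32851 RefSeq promoters of the same length. The letters hold a CpG, and outside the promoter window the region has few CpGs (15.1 and 9.49 per kb). The windows were not matched to the promoters in CpG content, so the 2 shares do not show a depletion. Of the measured CpGs, 2 fell in an occurrence, with P60 means of 61.2% at −8080 and 42.1% at +5056 on the + strand.

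Other captured regions had other profiles. Between 35% and 65% stood 66.8% of the Zdbf2 cytosines, 100% of 20 at Zrsr1, 41.7% of 24 at the Grb10 control region and 6.17% of 81 at the Dlk1-Meg3 control region, all imprinted, and 5.99% of 668 at Lct-Mcm6, which is not known to be imprinted. Median P60 levels were 44.2%, 51.01%, 63.7%, 84.7% and 90.2% in the same order. Cytosines are not replicates and the probes differ, so these shares were not tested.

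The first comparison asked whether modification in the region changed along the adult gut. The 9 P60 segments were compared at each cytosine with an F test on the read counts (quasi-binomial, Bonferroni over 22270 cytosines of all contexts, threshold 0.01). Of 199 cytosines, 37 (18.6%) passed, whereas 14.5% of all CpG cytosines tested in the series passed, so the share in the region was close to the background. The number of calls rested on the test. Benjamini-Hochberg adjustment at 0.05 passed 66 of the 199, against a background of 24.8%. With limma on log2 odds 14 were called, for which no share over the series is given. The 9 segments were cut from each mouse, so samples of different segments share mice, which the labels do not link, and the tests across P60 segments take the samples as independent. With mice read from the numbering of the deposited files and fitted as a block, 36 were called, again with no share over the series. Of the 37, 35 were higher in segment 9 than in segment 1 and 2 were lower, and 29 had their lowest mean in segment 1. This direction was not particular to the region. Higher in segment 9 were 102 of 107 called cytosines at Lct-Mcm6 and 2 of 2 at Grb10, but 2 of 19 at Dlk1-Meg3. The 37 of the Zdbf2 region lay at 36 CpG positions, with 26 of 144 upstream, 1 of 19 in the promoter window and 10 of 36 in the gene body. The 1 in the promoter window was −585, at 41.8% in P60 and in no listed probe. No cytosine in the probe targets of that window was called. The range of segment means had a median of 9.36 points among the 37, from 3.07 to 26.3, and 4.63 points over all 199. Calls followed depth in part: of the 66 least read cytosines 5 were called, of the next 66 it was 17, and of the 67 most read it was 15.

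The strongest change was at the gradient pair, in intergenic sequence between −18112 and −18101. At −18101 (chr1:63255164), the lowest, median and highest of 8 samples were 8.30%, 11.3% and 16.03% in segment 1, 18.8%, 21.6% and 24.7% in segment 4, and 26.5%, 28.4% and 31.6% in segment 9. Every sample of segment 4 was above every sample of segment 1, and every sample of segment 9 above every sample of segment 4. The segment means were 12.2%, 16.9%, 20.2%, 21.6%, 23.9%, 25.01%, 25.3%, 26.8% and 28.9% from segment 1 to 9 (adjusted p = 3.7e-21, quasi-binomial F test), a rise at each step. Its neighbour at −18112, captured by the same probe, went from 21.6% ± 4.52 in segment 1 through 34.8% ± 1.97 in segment 4 to 40.4% ± 1.70 in segment 9 (SD, n = 8 each; adjusted p = 3.1e-18, quasi-binomial F test).

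At −1063 (chr1:63272202), the last CpG of the stretch before the promoter and the lowest of its 4, samples of segment 1 ranged from 13.7% to 19.1% around a median of 15.4%. Those of segment 4 ranged from 22.1% to 23.8% and those of segment 9 from 23.3% to 27.5%, both clear of segment 1. The mean rose from 15.8% to 25.1% (adjusted p = 3.0e-17, quasi-binomial F test), and most of this rise was complete by segment 4, at 23.01%. On the same reads, −1123 rose from 41.6% to 47.2% and −1107 from 32.8% to 38.5%, both past the threshold.

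The largest range belonged to +1806 (chr1:63275071), in the first intron of Zdbf2. It stood at 8.96% in segment 1 and 6.10% in segment 4, then rose to 17.2% in segment 7, 23.6% in segment 8 and 32.4% in segment 9 (adjusted p = 4.7e-17, quasi-binomial F test). The 8 samples ranged from 5.52% to 15.2% in segment 1, from 2.57% to 12.1% in segment 4 and from 26.3% to 34.3% in segment 9. Segment 9 was thus separate from segments 1 and 4, which overlapped. Its neighbour +1729, captured by the same probe, was not called and had a P60 mean of 2.90% ± 1.51 (SD, n = 71).

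One site with a strong change went the other way. At −22701 (chr1:63250564, − strand), the mean of 44.5% in segment 1 stayed at 43.8% by segment 4, then came down through 37.2% (segment 7) to 30.9% (segment 9) (adjusted p = 1.1e-12, quasi-binomial F test). The samples ranged from 38.99% to 51.97% in segment 1 and from 27.7% to 34.2% in segment 9, with no overlap. The second called site that was lower in segment 9, +1329, differed little between the ends (67.8% and 66.2%) and had its minimum in segment 3, with 56.1%.

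**Figure D3:**
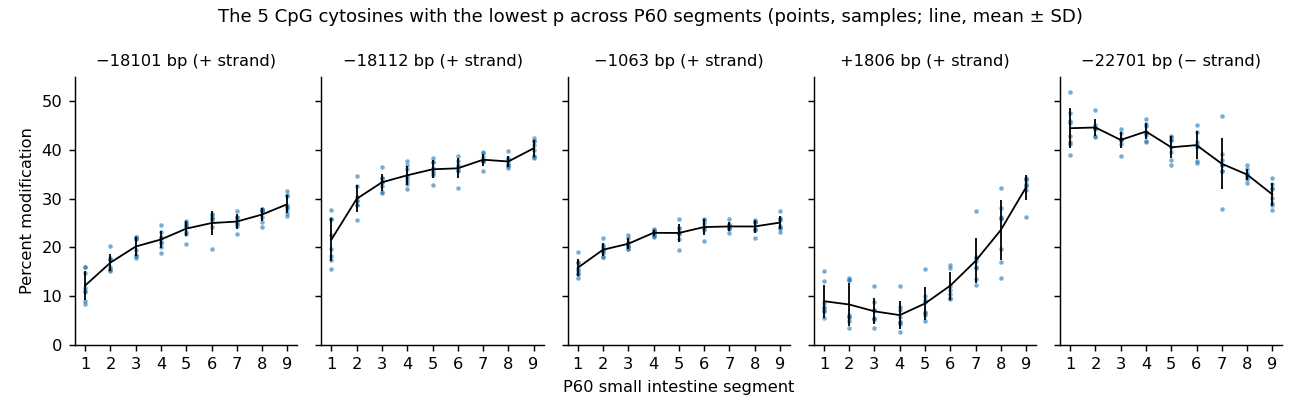
Percent modification (y axis) by P60 segment (x axis, 1 proximal to 9 distal) at the 5 cytosines with the lowest p, with points for samples and lines for the mean ± SD. The pair at −18112 and −18101 and the site at −1063 rise from segment 1, +1806 rises only beyond segment 5, from 8.49% to 32.4%, and −22701 falls from 44.5% to 30.9%.

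The called sites followed a few shapes, shared by neighbours on the same fragments. Besides the gradient pair, a first group lay at −2651 to −2618 in an intron of Gm11608, where all 3 measured cytosines were called. The + strand at −2651 rose from 40.9% in segment 1 to 51.2% in segment 9, and its − strand partner, read by another probe, from 36.7% to 45.1%. This was the only CpG called on both strands. A second group lay in the gene body stretch, where all 5 CpGs were called. The lowest of them, +6600, had segment means of 25.8% (1), 29.4% (4), 39.3% (7) and 40.1% (9). The other 4 gained 8.97 to 13.3 points between segments 1 and 9. A further group, −20161 to −19808, had 6 called cytosines that peaked in the middle of the gut. At −20153, the means were 34.1% in segment 1, 43.6% in segment 4 and 35.5% in segment 9, and 5 of the 6 peaked in segment 4 and the last in segment 5. Over all 37, the highest mean fell in segments 7 to 9 for 25, in segments 3 to 6 for 11 and in segment 2 for 1.

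Each sample was also reduced to 1 mean per zone, over the cytosines with more than 30 reads in every sample (18 in the promoter window, 26 in the gene body and the rest upstream). The upstream mean went from 39.4% ± 1.09 in segment 1 to 42.3% ± 0.502 by segment 4, with 42.1% ± 0.440 at the distal end (segment 9; SD, n = 8 samples each), so most of its change lay in the first segments. The promoter mean was 6.79% ± 0.435 in segment 1 and 8.44% ± 0.514 in segment 8. The gene body mean was 43.5% ± 1.73 in segment 1, 45.5% ± 1.40 in segment 4 and 48.9% ± 1.15 in segment 9, so its rise went on to the ileum. Each zone differed across the segments (permutation test of F, 100000 resamples, p = 1e-05, the smallest they can give, 2e-04 after Benjamini-Hochberg adjustment over 60 zone tests). Segment 9 exceeded segment 3 by 4.57 points in the gene body, with no overlap of samples (exact permutation test, two-sided, p = 0.000155, the smallest possible, adjusted 0.00233), and by 0.669 points in the promoter window (p = 0.00622, adjusted 0.0287, exact permutation test). In the upstream zone the difference was 0.322 points (p = 0.283, adjusted 0.381, exact permutation test). When samples were permuted within lanes, the gene body difference was 4.35 points (adjusted p = 0.006, permutation test), while the promoter difference, 0.646 points, no longer passed.

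**Figure D4:**
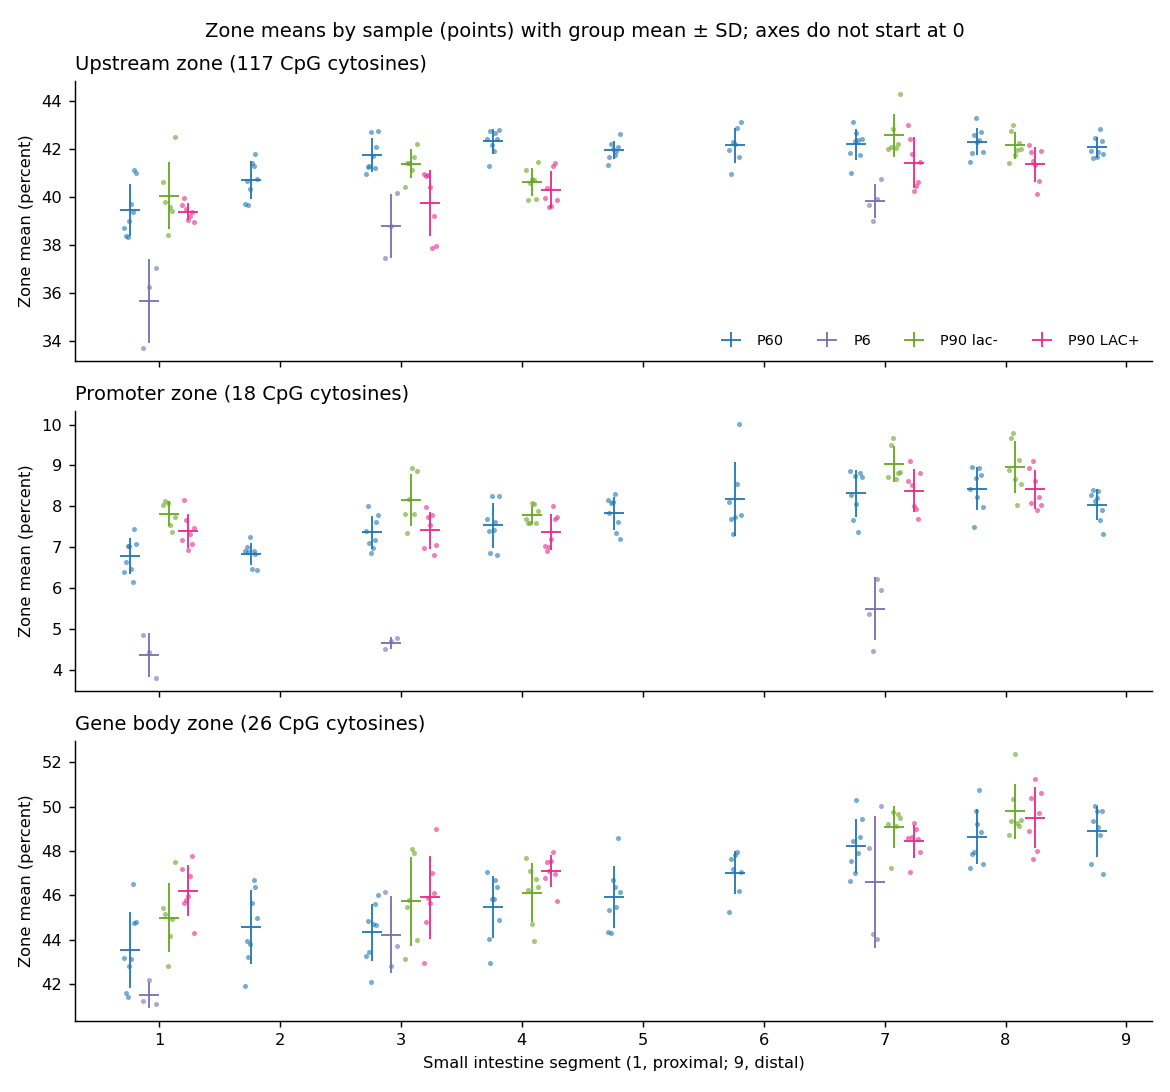
Mean percent modification of the upstream, promoter and gene body zones (y axes, which do not start at 0) in each sample by small intestine segment (x axis), with the mean ± SD of each group. P6 samples lie below P60 samples upstream and in the promoter window, and in P60 the gene body mean rises from 43.5% to 48.9%.

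Samples of other ages allow the P60 pattern to be looked at again in different mice. From segment 1 to segment 8, 34 of the 37 cytosines called in P60 moved in the P60 direction in lac- samples and 33 in LAC+ samples, with a median change of 5.07 and 4.19 points against 5.90 in P60. Of the 162 not called, 71.6% and 75.9% did so. From segment 1 to segment 7, 36 of the 37 moved in the P60 direction in P6, against 111 of the other 162. These are counts of cytosines that share fragments, not replicates, and were not tested. At −18101, the P6 samples were at 7.00%, 8.26% and 10.8% in segment 1, at 13.1%, 13.7% and 14.2% in segment 3 and at 17.8%, 19.2%, 20.01% and 20.8% in segment 7, in 3 separate ranges. In lac- mice its mean was 15.7% ± 3.43 (SD, n = 6) in segment 1 and 28.1% ± 0.964 (n = 7) in segment 8, and in LAC+ mice 17.4% ± 1.48 and 27.2% ± 1.32 (n = 7 each). The falling site at −22701 had 44.4% and 35.4% in lac- and 42.8% and 35.9% in LAC+ samples of segments 1 and 8.

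The steep site at +1806 was less regular in the P90 groups. In P6 it was higher distally, with 4.75% to 10.2% in segment 1 and 21.4% to 30.4% in segment 7. In lac- samples, however, segment 1 ranged from 5.93% to 26.3% and segment 4 from 2.33% to 26.1%, and in LAC+ samples segment 3 ranged from 2.07% to 41.8%. These ranges hold separate sets of libraries. The merged lac- files had 17.1% to 26.3% in segment 1 (n = 4) and 21.3% to 26.1% in segment 4 (n = 5), and the 2 unmerged files of each segment 5.93% and 7.85%, and 2.33% and 5.32%, which lie within or below the P60 ranges of those segments. In LAC+ segment 3 the 4 merged files had 17.6% to 29.3% and the 3 unmerged ones 2.07%, 2.68% and 41.8%. Its neighbour +1729 had a mean of 9.34% in LAC+ samples against 2.90% in P60 and 4.98% in lac-, and split in the same way. Merged files had a median of 9.50% in LAC+ (n = 29) and 9.73% in lac- samples (n = 12), and unmerged files 1.43% (n = 6) and 2.26% (n = 20), against 2.60% in P60. The exception was 1 unmerged LAC+ sample of segment 3 with 21.7%, the same that had 41.8% at +1806. The part of merging in these levels was not tested.

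Within the P6 gut itself, no cytosine passed (0 of 199, background 0% of 1484), with 30 below an unadjusted p of 0.05 in the quasi-binomial F test and 0 passing with Benjamini-Hochberg adjustment. The upstream mean was 35.7% ± 1.75 in segment 1 (n = 3), 38.8% ± 1.34 in segment 3 (n = 3) and 39.8% ± 0.713 in segment 7 (n = 4). The rise of 4.15 points from segment 1 to 7, without overlap, had the smallest p that 3 against 4 samples allow (exact permutation test, p = 0.0286, adjusted 0.101). With 3 samples against 3, the exact permutation test could not go below p = 0.1.

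Infants and adults were compared within matched segments. Infants had less modification in the promoter window and upstream, by a few points, in each of the 3 segments, as means over cytosines. In segment 7 the promoter means of the 4 P6 samples were 4.48%, 5.37%, 5.95% and 6.23%, and those of the 8 P60 samples ranged from 7.38% to 8.87% around a median of 8.50%. The upstream means of the same P6 samples were 38.996%, 39.6%, 39.9% and 40.7%, against a P60 range of 41.0% to 43.1%, again without overlap. P60 exceeded P6 in the promoter window by 2.41, 2.70 and 2.81 points in segments 1, 3 and 7 (adjusted p = 0.0287, 0.0287 and 0.0152, exact permutation tests). With the reads of the window pooled, which weights cytosines by depth, the promoter differences were 1.58, 4.08 and 4.78 points, of which the first and second did not pass. Upstream the differences of the means were 3.78, 2.94 and 2.37 points with the same adjusted p. These are the smallest p that the sample numbers allow, and the P6 libraries shared lane 8, which no P60 library used. In the gene body the differences of 2.03, 0.0966 and 1.63 points did not pass (adjusted p = 0.200, 0.897 and 0.306, exact permutation tests). The age difference was not shown to vary with segment in any zone (permutation of age within segments, p from 0.286 to 0.653).

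At single cytosines the age difference passed the Bonferroni limit at 0, 0 and 2 of the 199 in segments 1, 3 and 7, where 1.21%, 1.21% and 1.98% of all CpG cytosines passed. Both were in segment 7 and both were lower in infants. At −319 (chr1:63272946), in an exon of Gm11608 within the low stretch, P6 samples had 2.23%, 2.75%, 2.77% and 2.90%, and P60 samples ranged from 4.91% to 6.68% (means 2.66% and 5.84%, adjusted p = 0.00494, quasi-binomial F test). At −5099 (chr1:63268166), in an intron of Gm11608, P6 samples had 38.4%, 39.3%, 40.1% and 40.4%, and P60 samples ranged from 44.4% to 47.3% (means 39.6% and 46.2%, adjusted p = 0.00976, quasi-binomial F test). Neither site's groups overlapped. Neither call held when 1 infant sample was left out: the adjusted p was then 0.0195 to 0.0457 at −319 and 0.0314 to 0.0760 at −5099 (quasi-binomial F test), and 1 other cytosine passed without replicate 1.

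With the milder Benjamini-Hochberg limit of 0.05, 36, 32 and 42 of 199 cytosines passed in segments 1, 3 and 7, against backgrounds of 22.4%, 13.8% and 19.2%, and 34, 31 and 40 of them were higher in P60. As a share, the region lay below the background in segment 1 and just above it in segments 3 and 7. A set of 16 passed in all 3 segments, every one higher in P60. Of the 1482 CpG cytosines of the series tested in all 3, 6.48% passed in all and 5.8% did so with the higher level in P60. Of the 16, 13 lay upstream, 3 in the promoter window and 0 in the gene body. A group of 3 lies on 1 fragment at −13107, −13089 and −13070, with P60 means of 52.5%, 48.8% and 54.5% and P6 means of 46.6%, 43.8% and 47.4%. Another 4 lay in the most distant exon of Gm11608, from −6415 to −6320. Of these, −6339 differed by 11.8, 9.28 and 8.29 points in segments 1, 3 and 7. The 3 in the promoter window, −319, −301 and −299, had P6 means of 2.58%, 2.69% and 1.65% and P60 means of 5.69%, 5.63% and 3.39%.

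**Figure D5:**
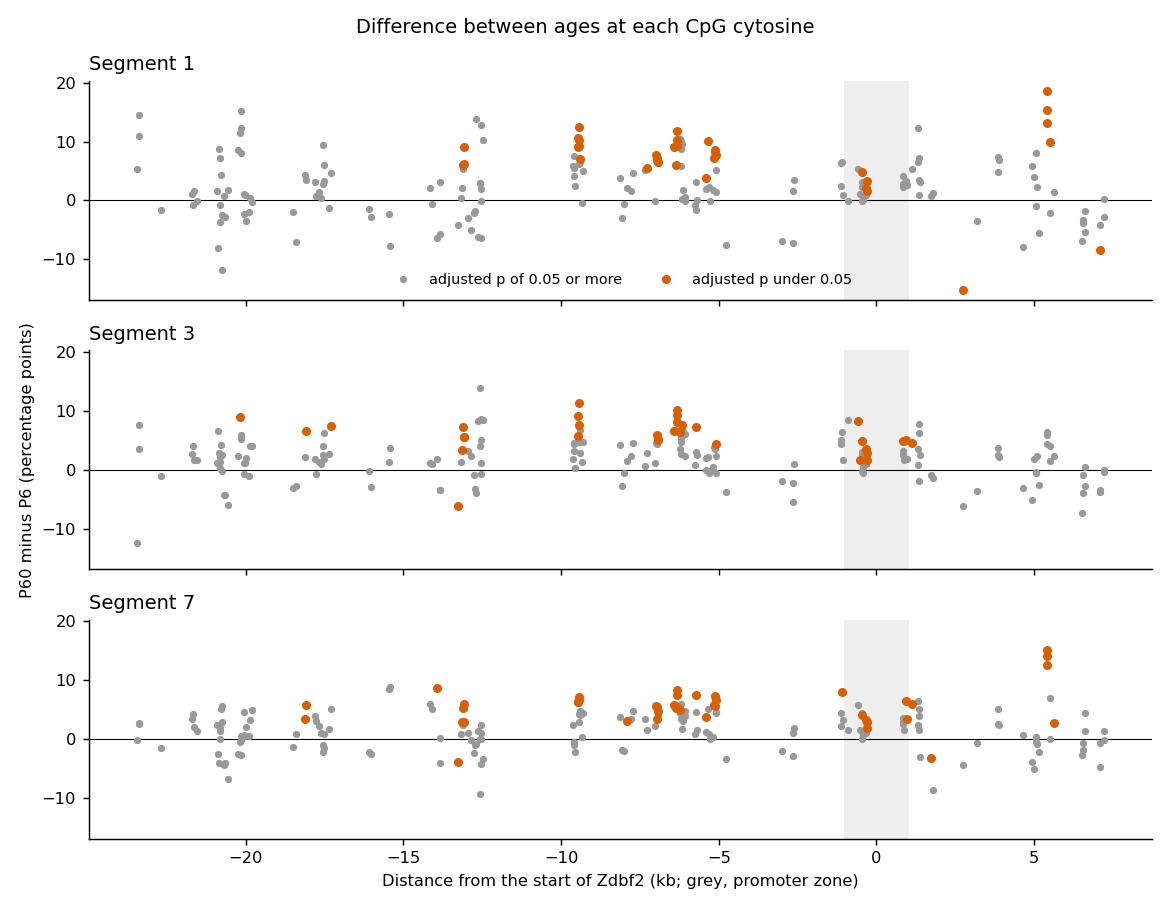
Difference between ages (y axis, P60 minus P6 in percentage points) at each of the 199 cytosines against distance from the Zdbf2 start (x axis, kb), in segments 1, 3 and 7. Coloured points have a Benjamini-Hochberg adjusted p under 0.05, number 36, 32 and 42, and lie above 0 in 34, 31 and 40 cases.

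In the two-strand stretch the age difference appeared on both strands, which different probes had captured. Over all P6 and P60 samples, the + strand was lower in infants by 7.38, 5.34, 9.23 and 5.07 points at −9454, −9446, −9441 and −9406, and the − strand by 7.41, 5.68, 8.79 and 4.83 points. At −9441, the P6 means were 41.0% ± 3.10 on the + strand and 45.1% ± 4.01 on the − strand (SD, n = 10), and the P60 means 50.3% and 53.9%. The strands did not always share a difference. At +5517, the + strand had 33.5% in P6 and 40.6% in P60, while the − strand had 43.7% and 44.2%.

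Milk with lactose was compared with lactose-free milk in P90 mice, segment by segment. No cytosine of the region passed the Bonferroni limit in any of the 5 segments (background 0% in each; 191 were tested in segment 3 and 199 in the others), and 24, 36, 16, 31 and 34 had an unadjusted p under 0.05 in segments 1, 3, 4, 7 and 8 in the quasi-binomial F test. In simulated data without a change, 6.64% of CpGs had such a p in segment 3. With Benjamini-Hochberg adjustment, 8 of 199 passed in segment 8, a lower share than the background of 6.88%, and 0 in the others. Of these 8, 5 were lower in LAC+ samples, among them −17532 with 31.8% ± 2.25 against 37.8% ± 1.63 (SD, n = 7 each) and −585 with 41.4% ± 1.27 against 44.9% ± 1.49. The 3 that were higher were −20774 and −20743, with a median of 66 reads, and +1729 with 8.89% ± 3.43 against 3.85% ± 1.24. Merged files made up 6 of the 7 LAC+ and 1 of the 7 lac- samples here. At +1729 the unmerged LAC+ sample had 3.02%, within the 2.26% to 4.32% of the 6 unmerged lac- samples, and the merged lac- sample had 6.08%, below the 7.49% to 13.5% of the merged LAC+ samples. At −17532 and −585 the unmerged LAC+ sample had 35.5% and 43.7%, just below the unmerged lac- samples (35.5% to 40.3% and 43.9% to 47.4%), while the merged lac- sample, with 37.8% and 42.7%, stood above the 6 merged LAC+ samples. Among unmerged or among merged files alone, where 1 sample of a group is taken to vary like the others, none of the region's cytosines passed either limit in segment 8 (7 and 27 under an unadjusted p of 0.05, quasi-binomial F test).

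The zone means of the diet groups overlapped. In segment 3, where the upstream difference was largest, LAC+ samples ranged from 37.9% to 40.9% around a median of 40.4% and lac- samples from 40.4% to 42.2% around a median of 41.4%. LAC+ minus lac- was −1.63 points there and −0.666, −0.321, −1.15 and −0.783 points in segments 1, 4, 7 and 8. The promoter differences were −0.412, −0.742, −0.410, −0.650 and −0.545 points in segments 1, 3, 4, 7 and 8, and those of the gene body lay between −0.652 and 1.22 points. The upstream and promoter differences were negative in all 5 segments, but none of the 15 passed (lowest adjusted p = 0.0723, exact permutation tests). LAC+ and lac- libraries of segments 3, 7 and 8 ran mostly on different lanes. The part of the lanes in these values was not tested beyond the few libraries that shared a lane number. In segment 3 these were 1 lac- and 6 LAC+ libraries on lane 1, with an upstream difference of −1.63 points. Among merged files alone the upstream difference was −1.19, −2.07, −0.275, −1.27 and −1.01 points in segments 1, 3, 4, 7 and 8. In segments 3, 7 and 8 it rests on 1 lac- sample each. Among unmerged files it was −1.39, 0.0559 and 0.0380 points in segments 3, 7 and 8, with 3, 2 and 1 LAC+ samples. The merged differences in segments 1 and 4 did not pass, and the other comparisons are too small to reach the threshold.

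The last comparison set the P90 lac- mice against the P60 mice, which differ in age, in drinking milk and, for many libraries, in lane number. Libraries of both ages with the same lane number need not have shared a sequencing run. No cytosine of the region passed the Bonferroni limit in segments 1, 3, 4, 7 or 8, where 0%, 0%, 0.0648%, 0% and 0% of all CpG cytosines did, and 49, 26, 73, 29 and 21 had an unadjusted p under 0.05 (quasi-binomial F test). In segment 4 the upstream zone was lower in P90, with samples from 39.8% to 41.4% against 41.3% to 42.8% in P60, which barely overlapped, and a difference of −1.69 points (adjusted p = 0.00559, exact permutation test). With the 2 unmerged lac- samples alone it was −1.57 points, in a comparison too small to reach the threshold. In segment 1 the promoter window was higher in P90, with 7.38% to 8.13% against 6.16% to 7.46%, a difference of 1.03 points (adjusted p = 0.0152, exact permutation test). This rise holds for the mean over cytosines and not for the pooled reads of the window, with which P90 minus P60 was −2.35 points in segment 1, past the threshold in the lower direction, and negative in all 5 segments. The most-read cytosine, −585 at 41.8% in P60, gave a median of 27.6% of the window's reads in P60 and 21.9% in lac- samples. In segment 1, cytosines outside CpG sites read as modified had a median share of 0.379% in P60 and 1.68% in lac- samples. The part of either in these differences was not tested. The other 13 zone differences did not pass. With Benjamini-Hochberg adjustment, 3, 3, 39, 6 and 0 of the 199 cytosines (191 tested in segment 3) passed, against backgrounds of 3.77%, 6.59%, 29.2%, 1.8% and 2.69%. As a share, the region lay below the background in segments 1, 3, 4 and 8 and above it in segment 7.

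Of the 39 in segment 4, 31 were lower in P90 and 8 higher. The 8 include −5285, with 1.26% against 0.952%, which lies in an annealing arm where the read carries the letters of the probe. Its difference is thus not a difference in the modification of the samples. Lower were 5 cytosines on the fragment at −20246 to −20153, by 5.61 to 6.77 points, 7 on the pair of fragments at −6232 to −6123, and all 4 of the stretch before the promoter, of which −1123 fell from 47.5% to 40.3%. Higher were −5418, −5405 and −5299, the run of low cytosines in Gm11608, by 5.52 to 5.93 points, and the intron pair, with 8.92% against 2.05% at +1729 and 18.6% against 6.10% at +1806. These rises stood in the 5 merged lac- files and not in the 2 unmerged ones. At −5418 the merged files had 12.4% to 16.3% and the unmerged ones 5.74% and 5.92%, against 5.15% to 8.18% in P60. At +1729 it was 10.8% to 12.7%, and 0.972% and 2.02%, against 1.12% to 4.43%. Over the 8 higher cytosines, −5285 included, the mean difference from P60 had a median of 7.91 points in merged and −0.150 points in unmerged files. Over the 31 lower ones it was −5.13 and −2.63 points, with the unmerged mean below the P60 mean at each of the 31 and inside the P60 range at 18. With the unmerged files alone, 0 of the 199 passed either limit (33 under an unadjusted p of 0.05, quasi-binomial F test). In segment 4 all merged lac- files ran on lane 3 and the unmerged ones on lane 5, so merging and lane cannot be told apart. The share of cytosines outside CpG sites read as modified in the region, which depends on bisulfite conversion, stood at a median of 0.397% for P60, 0.508% for P6, 1.76% for lac- and 2.66% for LAC+. Among segment 3 libraries with lane number 6, its mean was 0.396% in P60 and 1.51% in lac- (n = 3 each). In lac- segment 4 it was 3.07% to 3.24% in the merged files and 0.446% and 1.48% in the unmerged ones, and its part in these differences was not tested.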

How the data were processed

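DNA modification was measured by bisulfite sequencing after capture with padlock probes, 87 of which target the region. Per the labels and methods, the authors trimmed the reads (Trimmomatic 0.32), mapped them with Bismark to GRCm38/mm10 and deposited, for each cytosine and strand, the counts of modified and unmodified reads, without normalization. Modification is modified reads over all reads. The probes hold degenerate bases, but their use to remove PCR copies is not stated, so counting error is a lower limit. The members and lists were chosen with earlier results of these data known. Probes were placed by their listed sequences, and 147 fused first lines, none at a CpG, were left out.

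A cytosine entered a test when each group had 3 or more samples above 30 reads, and was compared by a quasi-binomial F test with 1 dispersion per cytosine and Bonferroni correction at 0.01 over all cytosines tested (for diet, over CpGs up to 90%). Zone means used permutation tests, exact for pairs of groups, adjusted by Benjamini-Hochberg over 60 tests. Each mouse gave several segments and the labels do not link samples to mice, so p-values measure the spread between samples. Samples with the same replicate number were only weakly correlated. P60 segment 1 replicate 4, whose file is marked as a repeat, differed from replicate 1 by more than sampling noise (chi-square of 2.41 per cytosine). The 2 were still the closest of 449 pairs within groups, which had a median of 7.07. Whether they come from the same mouse is not given, and both were kept as samples. Named CpGs are those past a threshold (the 5 lowest p where more), the most read of each block, and the lowest, highest and closest to 50%; others are examples picked after their values were seen. In simulated P60 data on 22270 cytosines, 94 of 100 changes of 15 points and 31 of 100 of 5 points were called. Called without a change were 0 of 1315 CpGs and 57 of 20755 cytosines outside CpG sites, so the F test was too lenient there. For P6 against P60 in segment 1, 17 and 0 of 100 changes were called. Unchanged CpGs had an unadjusted p under 0.05 (quasi-binomial F test) in 9.35% of cases across P60 segments. For age in segment 1 and diet in segment 3 it was 6.73% and 6.64%. All 3 lie above the nominal share, so the F test was somewhat lenient at CpGs too. The counts under an unadjusted p of 0.05 include such cytosines, and no share over the series is given for them. Python 3.11.15, SciPy 1.17.1 and R 4.3.3 with limma 3.58.1 were used.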

Additional observations from a re-analysis of the deposited data

Results flagged for a closer look

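Among 60 zone means of groups with 4 to 10 samples, 2 groups held a sample far from the others, and chance gives about 1 in 20. Both were lac- samples of segment 7 run on lane 6. In the upstream zone, replicate 6 stood at 44.3%, and the nearest sample at 42.8%. In the gene body, replicate 2 stood at 47.2%, and the nearest sample at 49.1%.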

How the results depend on the processing

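Zone means were recomputed 537 times, with one choice changed each time: 472 kept their direction and their side of the threshold, 30 kept their direction but no longer passed, 6 newly passed and 29 changed direction. The cause was not tested unless a cause is named.

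Counts of called cytosines depended most on the error limit. With Benjamini-Hochberg adjustment at 0.05 in place of Bonferroni, the P60 segments had 66 calls, the age comparison 36, 32 and 42 in segments 1, 3 and 7, diet 8 in segment 8, and P90 lac- against P60 3, 3, 39 and 6 in segments 1, 3, 4 and 7. Correcting over CpGs alone, which is a smaller number of tests, gave 5 and 1 age calls in segments 1 and 3 and 2 calls for P90 lac- against P60 in segment 4. With limma on log2 odds, the P60 segments had 14 calls and age in segment 7 had 0. With a minimum of 10 reads, age in segment 7 had 1 call. Leaving out 1 P6 sample gave 0 to 1 age calls in segment 1 and 0 to 1 in segment 7. For the counts over CpGs alone, with limma, with 10 reads and with left-out samples, no share over the series is given.

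Pooling the reads of a zone weights cytosines by depth, and the most-read promoter cytosine gave 11.9% to 36.2% of the reads of its zone. Pooled, P60 minus P6 in the promoter window was 1.58 and 4.08 points in segments 1 and 3, and segment 9 minus 3 was 0.343, none of which passed. P90 lac- minus P60 in the promoter window turned to −2.35, −0.874, −2.73, −0.997 and −1.31 points in segments 1, 3, 4, 7 and 8, of which those in segments 1 and 4 passed. The P6 promoter differences turned to −0.930 (segment 3 minus 1) and −0.306 (7 minus 1), the diet difference in segment 1 to 1.00, upstream P90 lac- minus P60 in segment 7 to −0.292, and the gene body diet differences to −0.147, −0.0652 and 0.348 in segments 1, 3 and 8. In segment 4 the gene body difference between P90 lac- and P60, 1.47 points, passed.

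With a promoter window of 500 bp, segment 9 minus 3 was 0.533 and did not pass, while the promoter diet differences in segments 3 and 7 (−1.20 and −0.861), those of P90 lac- and P60 in segments 3 and 7 (0.928 and 0.649) and the gene body age difference in segment 1 (2.21) passed. With all members as deviations, the upstream age difference in segment 3, 2.71, no longer passed. The gene body diet difference in segment 3 was −0.661 there, −0.845 and −0.399 at minimums of 10 and 100 reads, and −2.52 within lanes, which leaves 1 lac- library. Within lanes, segment 9 minus 3 in the promoter window was 0.646 and did not pass, and the gene body diet difference in segment 8 was 0.367, also with 1 lac- library. Leaving out 1 P6 sample, the age difference was 2.79 to 4.47 upstream and 2.13 to 2.66 in the promoter window in segment 1, 2.28 to 3.62 and 2.62 to 2.77 in segment 3, and −0.604 to 1.06 in the gene body of segment 3; fewer samples cannot reach the threshold.

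Replicate numbers paired the P60 samples little: same-numbered samples had a mean correlation of 0.0469, against −0.0063 for other pairs. In P6 it was 0.142 over 9 same-numbered pairs, against −0.0527. With P60 mice read from the numbering of the deposited files, it was 0.119 for the same mouse and −0.017 for others. With a replicate block, which leaves fewer rearrangements, the age differences were 2.81, 2.37 and 2.25 points upstream and 2.31, 2.84 and 2.88 in the promoter window, segment 9 minus 3 was 0.669 (promoter) and 4.57 (gene body), and P90 lac- minus P60 was −1.62 (upstream, segment 4) and 1.20 (promoter, segment 1), none passing. The 3 or 4 pairs for age, and the 6 for the promoter window in segment 1, were too few to reach the threshold. Samples of different ages that share a number come from different mice, so the block holds no true pairing there. The block turned the gene body differences in segment 3 to −0.392 (age) and −0.332 (diet), and gave 0 age calls in segment 7. Leaving out the 3 annealing-arm cytosines, chosen after seeing the data, changed no call at the Bonferroni limit. File kind was also separated after seeing the data. Among unmerged files, upstream diet differences were 0.0559 and 0.0380 in segments 7 and 8, and the promoter one was 0.00277 in segment 8. P90 lac- minus P60 was −0.453 and −1.57 upstream in segments 1 and 4, −0.0545 and −1.12 in the gene body there, and 1.03 in the promoter window of segment 1. Each of these rests on 2 lac- samples, too few to reach the threshold. Among merged files, gene body diet differences were −1.75 and 0.466 in segments 3 and 8, with 1 lac- sample in each. No count of calls moved.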
